A study of Homo sapiens with 4 samples.

Results

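The genes described here encode solute carriers outside the mitochondrial SLC25 family and were chosen by name and abundance. A protein-coding gene was taken if its symbol began with SLC, a family number, the letter A and a member number, if it was not an SLC25A gene, and if its mean normalized count over all libraries was at least 100. Of the 51740 rows of the deposited table, 293 had such a name, 237 of these were tested and 140 reached the minimum mean. The choice used the mean over both fractions and not the difference between them, but 8 members passed through the nuclear mean alone and 3 through the cytoplasmic mean alone. Such genes could hardly pass without a difference, and 7 of the 8 and all 3 were called. The 3 were SLC50A1, SLC10A3 and SLC39A4. The 8 were SLC4A5, SLC7A8, SLC9A5, SLC9A9, SLC13A3, SLC24A4, SLC27A1 and SLC27A6. The other 129 members had a mean of at least 100 in both fractions.

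RNA was measured in HEK293T cells, which derive from human embryonic kidney and express SV40 large T antigen. The cells were wildtype and were crosslinked with formaldehyde before a detergent lysis split them into a nuclear and a cytoplasmic fraction, so that both groups shared genotype and treatment. There were 2 nuclear and 2 cytoplasmic libraries from separate biological replicates, each made from 400 ng of RNA with a ribodepletion kit. A value is therefore relative to the other RNA of its fraction and says nothing of amounts in a cell. The deposited values were scaled by size factors and not to equal library totals, so they are no direct share of the RNA either. The fractions are bulk pools of 1 line, in which fewer cells with a transcript and less of it per cell cannot be told apart.

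Solute carriers move amino acids, sugars, ions, metals, vitamins and other small molecules across the membranes of the cell. They work as exchangers, as facilitated carriers or coupled to an ion gradient, and most pass through the membrane many times. Their mRNAs are translated at the endoplasmic reticulum, whose membrane is continuous with the nuclear envelope. Cells that divide fast in culture, as HEK293T cells do, take up much glutamine, essential amino acids and glucose.

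The whole count of each library was solved for 99.76% of the tested genes and for all 140 members from the digits of the deposited mean and fold change. Total counts on genes ranged from 21386205 to 24525934 per library. Genes without a solution held 18% of the total count and entered these totals at their fitted values. A library is named here as the deeper or the shallower of its fraction, because its replicate number is not known. All log2 fold changes are cytoplasm over nucleus, and unless another source is named they are the authors' deposited DESeq2 estimates, with their standard errors (SE) and their p-values adjusted over all tested genes. A gene was called where the adjusted p-value did not exceed 0.01. Of the markers that HEK293T cells are known for, NEFL, NEFM, LIN28B and IGF2BP1 had means from 3376 to 16264 and PAX2 a mean of 63.1. The means of the blood, liver and muscle markers PTPRC, CD3E, ALB and MYH7 were at most 1.76, and that of the epithelial marker EPCAM was 23.5. The nuclear lncRNAs MALAT1 and NEAT1 had log2 fold changes of -3.47 and -3.09.

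The solute carriers were spread over both fractions, with nearly as many called in one as in the other. Of the 140 members, 54 were called higher in the cytoplasm, 50 higher in the nucleus and 36 in neither direction. Cytoplasmic calls made up 38.6% and nuclear calls 35.7% of the members. Among all 23333 tested genes 25.9% were called cytoplasmic and 26.5% nuclear, and among the 11385 tested protein-coding genes with the same minimum mean the shares were 45.0% and 33.0%. The members' median log2 fold change was 0.07, against 0.25 over those protein-coding genes and -0.12 over all tested genes. The members' quartiles were -0.78 and 0.86. Among the 129 members with a mean of at least 100 in both fractions, 51 were called cytoplasmic and 43 nuclear, with a median of 0.16. A difference of more than 1 on the log2 scale was found in 31 members called cytoplasmic and in 30 called nuclear. The SE ranged from 0.10 to 0.36 with a median of 0.16, and the called member with the smallest difference was SLC38A1 at 0.31. Members that were not called lay between -0.65 and 0.56.

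The split depended on the scale. When the libraries were set to equal totals, every log2 fold change fell by 0.66, and 24 members were called cytoplasmic and 79 nuclear, which took the cytoplasmic share of the calls from 51.9% to 23.3%. On that scale 29.0% of the abundant protein-coding genes were called cytoplasmic and 49.0% nuclear. Each of the 50 genes called nuclear stayed so, 24 of those called cytoplasmic did, and 2 genes called cytoplasmic on the deposited scale were called nuclear. The order of the members is the same on both scales, so the values below are read as an order and against the other genes.

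**Figure D1:**
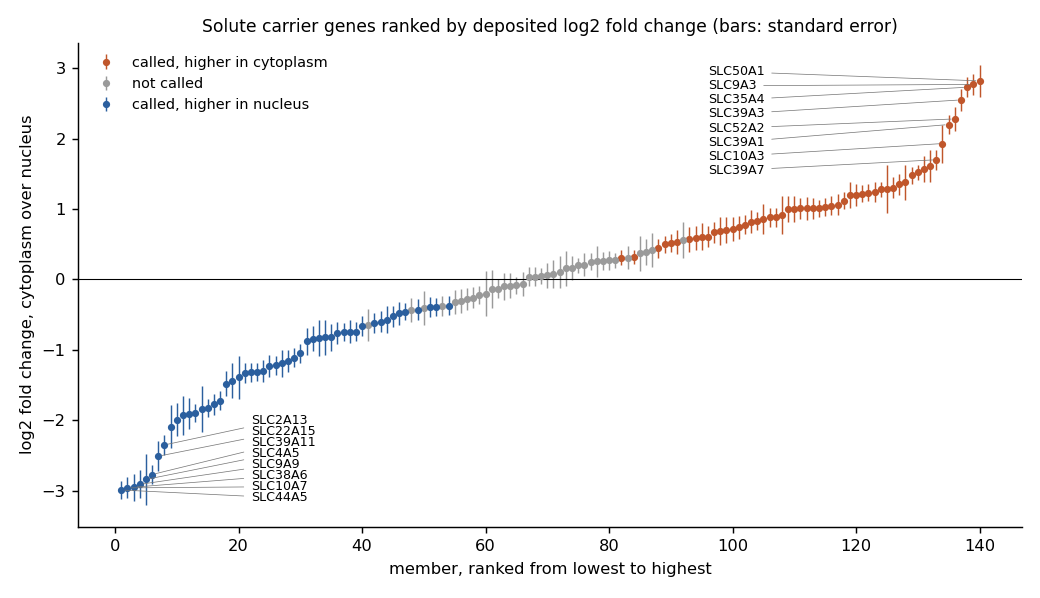
The 140 members ranked by log2 fold change, cytoplasm over nucleus, with the member's rank on the horizontal axis and bars for the deposited standard error. The values run from -2.99 in SLC44A5 to 2.82 in SLC50A1, and the 36 members that were not called lie around 0.

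The single libraries separated most members. Both cytoplasmic libraries lay above both nuclear ones for 69 members (49.3%, against 52.7% of the abundant protein-coding genes with solved counts) and below both for 62 (44.3%, against 40.6%). The 9 members whose libraries overlapped were SLC24A1, SLC38A7, SLC47A1, SLC9A7, SLC7A6, SLC22A5, SLC37A1, SLC12A2 and SLC6A6, and none of them was called. limma, run on the log2 values of the solved counts, called 53 members cytoplasmic and 53 nuclear with its own adjusted p-value not above 0.01, where the shares among the abundant protein-coding genes were 45.6% and 33.9%. It shared 102 calls with the deposited test and made 4 others. With either nuclear library left out, limma over all tested genes called 0 members. Without the deeper nuclear library 50 members higher in the cytoplasm and 44 higher in the nucleus reached an unadjusted p-value under 0.05, and without the shallower one 52 and 49. Over genes with a mean of at least 100 alone, a choice made after seeing the data, the same fits called 52 and 46 members without the deeper and 53 and 52 without the shallower nuclear library.

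The member with the largest cytoplasmic difference was SLC50A1, a sugar carrier of the Golgi and plasma membrane (hg38, chr1:155135344-155138857, 3.51 kb). Its normalized counts were 57.4 and 66.4 in the deeper and shallower nuclear libraries and 424 and 448 in the deeper and shallower cytoplasmic ones. The cytoplasmic level was 7.05-fold higher (log2 fold change 2.82, SE 0.23, adjusted p = 2.44e-32). SLC50A1 passed the minimum mean through the cytoplasmic mean alone, so it could hardly have been a member without such a difference. SLC9A3, the sodium-proton exchanger NHE3 of kidney and gut epithelium (chr5:470456-524449), followed with 236 and 262 in the nuclear and 1691 and 1703 in the cytoplasmic libraries, in the same order. Its log2 fold change was 2.77 (SE 0.15, adjusted p = 2.66e-79). SLC35A4, which belongs to the family of nucleotide sugar transporters, had 324 and 330 nuclear and 2004 and 2335 cytoplasmic normalized counts and a log2 fold change of 2.73 (SE 0.14). In all 3 genes the libraries of 1 fraction lay close together and far from those of the other.

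The other members among the 8 with the largest cytoplasmic differences were mostly zinc carriers. SLC39A3 and SLC39A1, which import zinc through the plasma membrane, had log2 fold changes of 2.55 (SE 0.16) and 2.20 (SE 0.13), and SLC39A7, which releases zinc from the endoplasmic reticulum, had 1.70 (SE 0.14). SLC39A1 had 688 and 833 nuclear against 3356 and 3626 cytoplasmic normalized counts. SLC52A2, a riboflavin carrier, was at 2.28 (SE 0.17). SLC10A3, a member of the bile acid carrier family, was at 1.93 (SE 0.27) on few counts, with 88 and 79 reads in the nuclear and 202 and 200 in the cytoplasmic libraries. It passed the minimum mean through the cytoplasmic mean alone.

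At the other end, SLC44A5, a choline transporter-like gene of 409 kb (chr1:75202129-75611114), had 4939 and 4411 normalized counts in the nuclear libraries and 570 and 608 in the cytoplasmic ones. It was 7.94-fold higher in the nucleus (log2 fold change -2.99, SE 0.13, adjusted p = 5.18e-122). SLC10A7, another member of the bile acid carrier family, had 2418 and 2154 nuclear against 277 and 310 cytoplasmic normalized counts and a log2 fold change of -2.96 (SE 0.15, adjusted p = 8.75e-89). SLC10A3 and SLC10A7 thus lay near opposite ends of the order, although they share a family. SLC38A6, a member of the neutral amino acid carrier family, was at -2.95 (SE 0.19), with 944 and 869 nuclear and 106 and 130 cytoplasmic normalized counts.

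The remaining genes among the 8 with the largest nuclear differences included SLC9A9, an endosomal sodium-proton exchanger, at -2.91 (SE 0.20), and SLC4A5, a sodium bicarbonate cotransporter, at -2.84 (SE 0.36). Both passed the minimum mean through the nuclear mean alone. SLC39A11, a zinc carrier, was at -2.77 (SE 0.14), SLC22A15, of the organic ion carrier family, at -2.51 (SE 0.21), and SLC2A13, the proton-coupled myo-inositol carrier, at -2.35 (SE 0.14). SLC4A5 was the least precise of the 140 members, with 23 and 20 reads in the cytoplasmic libraries against 257 and 228 in the nuclear ones. In every one of these 8 genes both nuclear libraries lay above both cytoplasmic libraries.

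**Figure D2:**
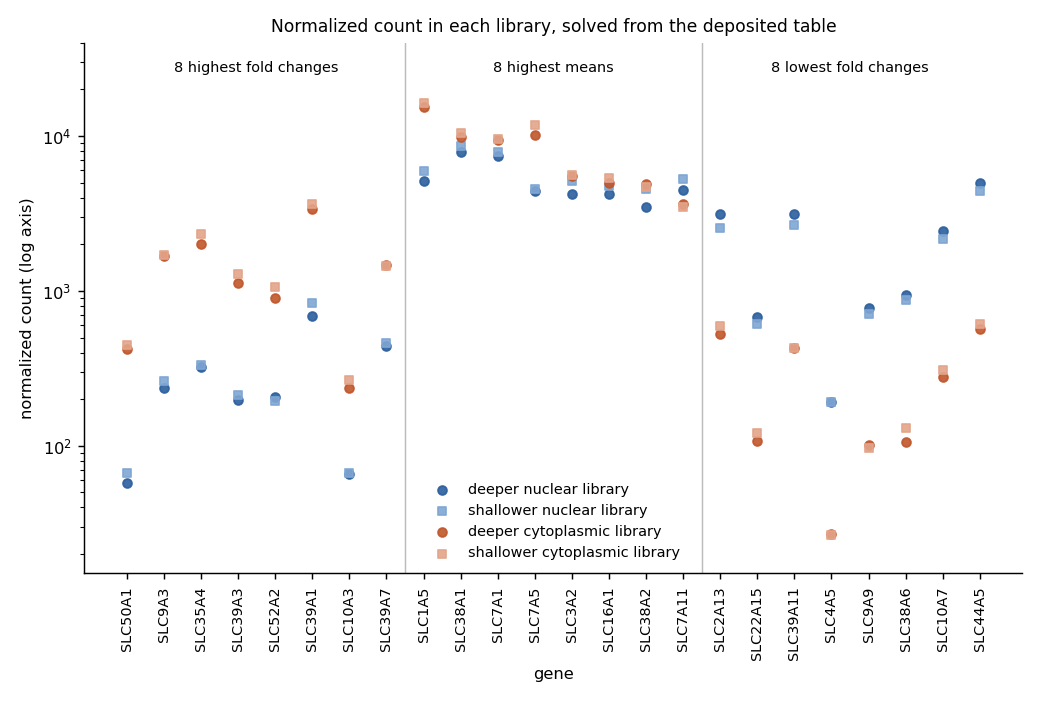
Normalized count of each of the 4 libraries on a log axis, for the 8 members with the highest log2 fold changes, the 8 with the highest means and the 8 with the lowest log2 fold changes. The fractions are far apart in the outer panels, while in the middle panel the nuclear and cytoplasmic libraries of SLC1A5 and SLC7A5 stand apart and those of the other 6 genes lie close together.

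The amino acid carriers held 7 of the 8 highest means, and the 8 together held 31.6% of the members' summed means. These levels chose the members and are given as a description. SLC1A5, the glutamine carrier ASCT2 (chr19:46774883-46788594), had the highest mean of 10667, with 5108 and 5901 normalized counts in the nuclear and 15333 and 16327 in the cytoplasmic libraries. It was 2.88-fold higher in the cytoplasm (log2 fold change 1.52, SE 0.11, adjusted p = 4.07e-41). SLC7A5, the large neutral amino acid carrier LAT1, had 4445 and 4532 nuclear and 10127 and 11683 cytoplasmic normalized counts and a log2 fold change of 1.28 (SE 0.11, adjusted p = 1.55e-29). These were the only 2 of the 8 most abundant members that differed by more than 1 on the log2 scale.

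The other 6 abundant members lay near equality. SLC38A1, a sodium-coupled glutamine carrier, was called at 0.31 (SE 0.11, adjusted p = 0.00797), and SLC7A1, the carrier of cationic amino acids, at 0.32 (SE 0.10, adjusted p = 0.00428). Both turned to -0.35 with equal library totals. SLC3A2 at 0.25 (SE 0.12, adjusted p = 0.0644), the lactate carrier SLC16A1 at 0.20 (SE 0.11, adjusted p = 0.113) and SLC38A2 at 0.26 (SE 0.13, adjusted p = 0.0824), another sodium-coupled carrier of neutral amino acids, were not called. With equal totals these 3 were called nuclear, at -0.42, -0.46 and -0.40. SLC7A11, the cystine-glutamate exchanger, was the only one called nuclear, with 4492 and 5262 nuclear against 3632 and 3460 cytoplasmic normalized counts (log2 fold change -0.46, SE 0.12, adjusted p = 0.000257).

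Per kilobase of annotated exon, the mean cytoplasmic normalized count was 4751 for SLC1A5, 2289 for SLC7A5, 1238 for SLC7A1, 1030 for SLC39A1 and 1018 for SLC38A1. The last pair differed by less than the 2 cytoplasmic libraries of either gene. SLC3A2, SLC16A1, SLC38A2 and SLC20A1 followed at 868, 815, 736 and 712. The lowest level on this scale was 3.33 in SLC4A5. Intronic reads are part of these counts but not of the length.

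Heteromeric amino acid carriers join a light chain of the SLC7 family to the heavy chain SLC3A2 by a disulfide bridge. The heavy chain and its light chains did not share 1 distribution. SLC7A5 was called cytoplasmic and SLC7A11 nuclear, while SLC3A2, SLC7A6 at 0.04 (SE 0.13, and -0.63 with equal totals) and SLC7A8 at -0.20 (SE 0.32) were not called. SLC7A8 was also the member with the lowest mean, 102.0. SLC3A1, SLC7A7, SLC7A9 and SLC7A10, a heavy chain and light chains known from kidney, gut and brain, had means of at most 25 and were not members.

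Of the 28 carriers of amino acids, peptides and amines, 7 were called cytoplasmic, 11 nuclear and 10 in neither direction, with a median log2 fold change of -0.24. Their shares were 25% cytoplasmic and 39.3% nuclear, beside 45.0% and 33.0% of the abundant protein-coding genes. With equal totals 3 were called cytoplasmic and 21 nuclear, beside 29.0% and 49.0%, with a median of -0.90. The group ran from SLC38A6 to SLC1A5. SLC1A4, a neutral amino acid carrier of the same family as SLC1A5, was at 1.35 (SE 0.15), whereas SLC1A3, a glutamate carrier known from glia, was at -1.90 (SE 0.13) with 2373 and 2248 nuclear against 591 and 652 cytoplasmic normalized counts. Within the SLC6 family, the creatine carrier SLC6A8 was at 1.03 (SE 0.13) and the taurine carrier SLC6A6, at -0.30 (SE 0.17, adjusted p = 0.123), was not called. SLC38A9, a lysosomal arginine sensor, was at -1.22 (SE 0.14), and the lysosomal proton-coupled carrier SLC36A1 at -0.76 (SE 0.16).

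The metal carriers were the group with the most cytoplasmic calls. Of 23 members, 16 were called cytoplasmic and 4 nuclear, with a median of 0.88, beside 45.0% and 33.0% of the abundant protein-coding genes and their median of 0.25. SLC39A4, among these 16, passed the minimum mean through the cytoplasmic mean alone. With equal totals the median was 0.22 and 9 were called cytoplasmic and 7 nuclear. Within the SLC39 zinc importers, 9 of 11 were called cytoplasmic, SLC39A10 was not called at -0.08 (SE 0.12) and SLC39A11 alone was called nuclear. SLC39A11 had 3155 and 2649 nuclear against 427 and 425 cytoplasmic normalized counts, opposite to SLC39A1. SLC39A14, which also carries manganese and iron, was at 1.01 (SE 0.12). The SLC30 genes, which move zinc out of the cytosol, were split, with 3 of 6 cytoplasmic and 2 nuclear, but with equal totals 0 were called cytoplasmic and 3 nuclear. SLC30A1, the zinc exporter of the plasma membrane, was at 1.00 (SE 0.19), and at 0.33 (adjusted p = 0.112) with equal totals, where it was not called. SLC30A7, which loads zinc into the Golgi, was at -1.31 (SE 0.13). SLC31A1, the high-affinity copper importer, was at 1.48 (SE 0.12) and SLC11A2, the iron carrier DMT1, at -0.22 (SE 0.13, adjusted p = 0.149).

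The carriers of inorganic ions and protons had the most nuclear calls. Of 25 members, 16 were called nuclear and 4 cytoplasmic, with a median of -0.66, beside 33.0% and 45.0% of the abundant protein-coding genes. SLC4A5, SLC9A5, SLC9A9 and SLC24A4, among these 16, passed the minimum mean through the nuclear mean alone and could hardly be members without such a difference. With equal totals 21 were called nuclear and 2 cytoplasmic, with a median of -1.32, beside 49.0% and 29.0%. The SLC9 sodium-proton exchangers were called nuclear in 5 of 7 cases, with SLC9A9 at the lowest value. SLC9A3 was the single cytoplasmic call of this family. Of the SLC4 bicarbonate carriers 4 of 5 were called nuclear, and the anion exchanger SLC4A2 was cytoplasmic at 1.23 (SE 0.12). Both sodium-phosphate carriers of the SLC20 family were called, SLC20A1 at 0.83 (SE 0.13) and SLC20A2 at -0.74 (SE 0.13), with 2089 and 2323 nuclear and 3512 and 4314 cytoplasmic normalized counts for the former and 1874 and 1848 against 1054 and 1169 for the latter. With equal totals SLC20A1 was at 0.16 (adjusted p = 0.279) and was not called, while SLC20A2 was called nuclear at -1.41. The cation-chloride cotransporter SLC12A2, at -0.13 (SE 0.13, adjusted p = 0.404), was not called, and no SLC12 gene was called cytoplasmic, with 3 of 5 called nuclear.

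Among the 18 carriers of sugars, polyols and nucleotide sugars, 9 were called cytoplasmic (50%) and 5 nuclear (27.8%), beside 45.0% and 33.0% of the abundant protein-coding genes. SLC50A1, among these 9, passed the minimum mean through the cytoplasmic mean alone. The median of 0.35 turned to -0.31 with equal totals, where 4 were called cytoplasmic and 8 nuclear, beside 29.0% and 49.0%. The glucose carriers SLC2A1 and SLC2A3 were called cytoplasmic at 0.67 (SE 0.15) and 0.86 (SE 0.21), and with equal totals they were at 0.01 and 0.19 and were not called. SLC2A1 had 616 and 579 nuclear and 866 and 1036 cytoplasmic normalized counts. The nucleotide sugar carriers of the SLC35A subfamily were all called on the deposited scale, SLC35A4, SLC35A2 and SLC35A5 in the cytoplasmic and SLC35A1 and SLC35A3 in the nuclear direction. With equal totals 2 were called cytoplasmic and 2 nuclear, and SLC35A5 at -0.07 (adjusted p = 0.752) was not called. SLC35A2, the UDP-galactose carrier, was at 1.57 (SE 0.19), and SLC35A1, the CMP-sialic acid carrier, at -1.48 (SE 0.18), with 711 and 613 nuclear against 238 and 236 cytoplasmic normalized counts.

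The 23 carriers of vitamins, nucleosides, cofactors and lipids were called cytoplasmic in 9 (39.1%) and nuclear in 7 (30.4%) cases, beside 45.0% and 33.0% of the abundant protein-coding genes. SLC27A1 and SLC27A6, among these 7, passed the minimum mean through the nuclear mean alone. The median of 0.27 turned to -0.39 with equal totals, where 3 were called cytoplasmic and 11 nuclear, beside 29.0% and 49.0%. The equilibrative nucleoside carriers differed, with SLC29A1 at 1.01 (SE 0.15) and SLC29A2 at -1.11 (SE 0.14, adjusted p = 2.39e-14). SLC29A1 was at 0.34 (adjusted p = 0.0335) with equal totals and was not called. SLC29A2 had 1461 and 1307 nuclear against 660 and 625 cytoplasmic normalized counts. The choline transporter-like SLC44A2 was at 1.06 (SE 0.15), at the far side from SLC44A5. The reduced folate carrier SLC19A1 was at 0.44 (SE 0.13, adjusted p = 0.00119) and moved to -0.22 with equal totals.

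Of the 15 carriers of carboxylates and other organic ions, 7 were called nuclear and 3 cytoplasmic, with SLC10A7 and SLC10A3 at the ends. These were 46.7% and 20%, beside 33.0% and 45.0% of the abundant protein-coding genes, and the median was -0.09. With equal totals 11 were called nuclear and 1 cytoplasmic, beside 49.0% and 29.0%, with a median of -0.75. SLC13A3, among the 7, and SLC10A3, among the 3, passed the minimum mean through 1 fraction alone. SLC16A10, a carrier of aromatic amino acids in the monocarboxylate family, was at -1.72 (SE 0.13), with 3396 and 2830 nuclear and 916 and 979 cytoplasmic normalized counts. The lactate exporter SLC16A3 had a mean of 90.8 and was not a member. All 3 members of the SLC66 family, from SLC66A1 at 0.70 (SE 0.18) to SLC66A2 at 1.01 (SE 0.15), were called cytoplasmic, and none of them was called with equal totals.

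**Figure D3:**
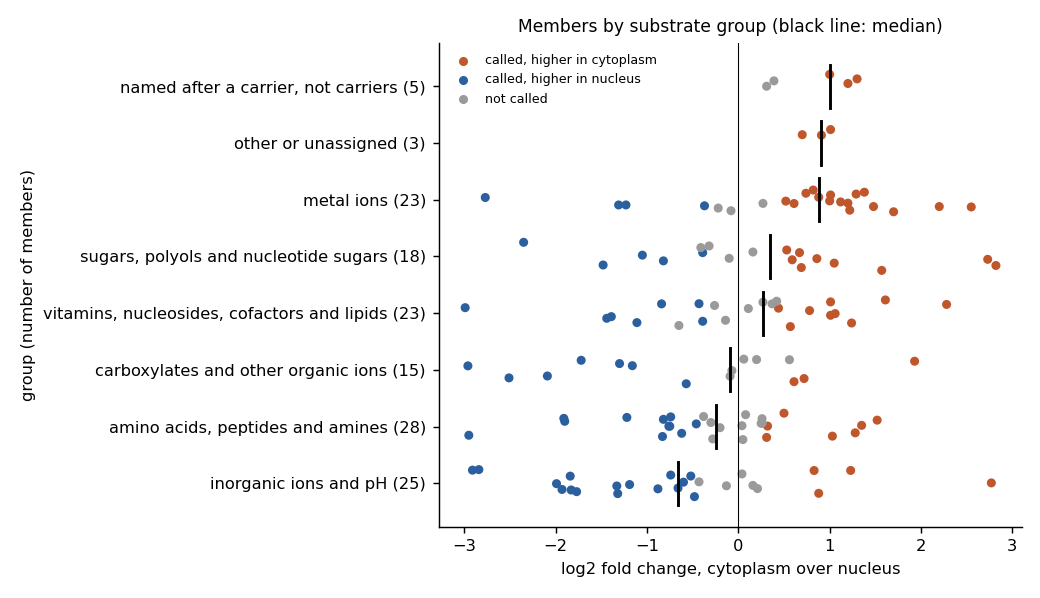
Log2 fold change of each member, cytoplasm over nucleus, by substrate group, with 1 point per gene and a black line at the group's median. The medians run from -0.66 in the carriers of inorganic ions to 0.88 in the metal carriers and 1.00 in the genes that are only named after a carrier, and every group with more than 5 members spans both directions.

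The name rule also took 5 genes that encode no carrier. SLC9A3R1 and SLC9A3R2 encode the scaffold proteins NHERF1 and NHERF2, which bind NHE3, and were called cytoplasmic at 1.20 (SE 0.19) and 1.00 (SE 0.19), as was SLC9A3 itself. SLC2A4RG, a transcription factor named after the insulin-responsive glucose carrier, was at 1.30 (SE 0.15). SLC4A1AP at 0.31 (SE 0.16) and SLC7A6OS at 0.39 (SE 0.18) were not called. Without these 5 genes 51 of 135 members were called cytoplasmic and 50 nuclear, and the median was 0.04.

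Members of 1 family could be called in opposite directions. Of the 20 families with at least 3 members, 17 had calls in both directions on the deposited scale. The exceptions were SLC12 and SLC22, with nuclear calls alone, and SLC66. Over all members 38.6% were called cytoplasmic and 35.7% nuclear. Other gene families were not counted, so the 17 cannot be read as particular to the carriers. With equal totals 8 of the 20 families had calls in both directions.

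Gene span, the annotated length from the first to the last exon, had the largest Spearman correlation with the fold change among the features computed. The Spearman correlation between span and log2 fold change was -0.667 over the 140 members, as a description across genes, which are not replicates. The correlation was -0.656 for the summed intron length, -0.495 for the number of exon blocks, -0.396 for the exonic length and 0.093 for the mean normalized count. The same was seen beyond the carriers, with a correlation of -0.726 for span over 11382 abundant protein-coding genes. The reads were counted over exons and introns together, so unspliced RNA adds to the value of a long gene, and its part in the result was not tested.

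Of the 17 members with a span of at most 10 kb, 14 were called cytoplasmic and 1 nuclear, and their median was 1.29. These 14 include SLC50A1, SLC10A3 and SLC39A4, the 3 members that passed the minimum mean through the cytoplasmic mean alone. Of the 28 members between 10 and 30 kb, 18 were called cytoplasmic and 3 nuclear, with a median of 0.76. The 64 members between 30 and 100 kb were called cytoplasmic in 21 and nuclear in 22 cases, with a median of -0.03. Of the 31 members over 100 kb, 24 were called nuclear and 1, the zinc carrier SLC39A8 of 180 kb at 0.52 (SE 0.13), cytoplasmic, with a median of -1.30. SLC4A5, SLC9A9, SLC13A3, SLC24A4 and SLC27A6, which passed the minimum mean through the nuclear mean alone, are among these 24. The classes and the correlation with span were not recomputed without the genes that passed through 1 fraction alone. The other abundant protein-coding genes had medians of 2.06, 0.95, 0.01 and -1.26 in the same classes. Their cytoplasmic shares were 89%, 66.6%, 34.2% and 6.18%, against 82.4%, 64.3%, 32.8% and 3.23% of the members. Their nuclear shares were 3.8%, 10.7%, 33.5% and 77.9%, against 5.88%, 10.7%, 34.4% and 77.4% of the members. Above 10 kb the shares of both sets lay close together. The largest gap between the medians was in the shortest class, 1.29 against 2.06.

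**Figure D4:**
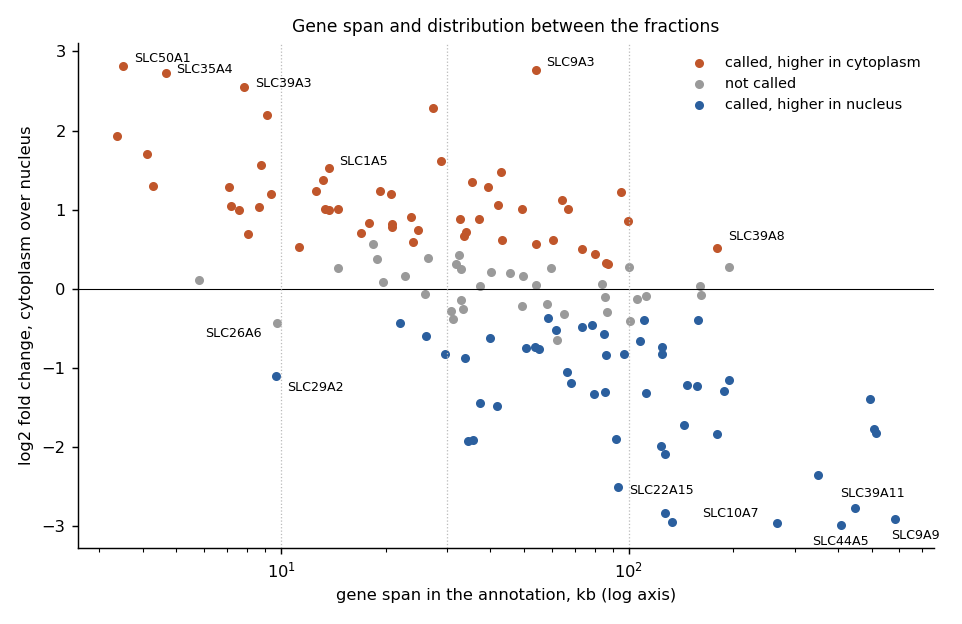
Log2 fold change of each member, cytoplasm over nucleus, against its gene span in kb on a log axis, with dotted lines at 10, 30 and 100 kb. The values fall with span (Spearman correlation -0.667), and SLC9A3 above and SLC29A2 and SLC22A15 below the other members of their span stand apart.

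The substrate groups differed in span too. The median span was 31.6 kb for the sugar carriers, 32.9 kb for the carriers of vitamins and 43.1 kb for the metal carriers. It was 54 kb for the carriers of amino acids, 73.4 kb for those of inorganic ions and 85.2 kb for those of organic ions. In that order the median log2 fold changes were 0.35, 0.27, 0.88, -0.24, -0.66 and -0.09, so the groups did not strictly follow span. The abundant protein-coding genes had a median span of 38.6 kb and a median log2 fold change of 0.25. The SLC39 genes, 9 of 11 called cytoplasmic, had a median span of 20.9 kb, and the exceptions were SLC39A11 of 447 kb and SLC39A10 of 162 kb, while SLC39A8 of 180 kb was called cytoplasmic. SLC10A3 and SLC10A7 span 3.38 and 268 kb, SLC20A1 and SLC20A2 17.9 and 125 kb, and SLC44A2 and SLC44A5 42.1 and 409 kb, the longer gene being the lower in each pair. SLC29A1 and SLC29A2 ran the other way, with spans of 14.6 and 9.69 kb. So did SLC41A1 and SLC41A3, with spans of 24.7 and 95.2 kb and log2 fold changes of 0.74 and 1.22. These pairs were picked after their values were seen, and the order by span within families was not counted.

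A few members departed from the order by span. SLC9A3 spans 54 kb and lay 2.80 above the median of its class, the largest departure of all. It overlaps the antisense gene SLC9A3-AS1 over 7.65 kb, which had a mean of 759 and a log2 fold change of -1.45 (SE 0.15), opposite to that of SLC9A3. SLC9A3 also overlaps EXOC3 on the opposite strand over 1.48 kb, which had a mean of 1573 and a log2 fold change of 0.19 (SE 0.12). The authors removed stretches shared by several genes before counting, and whether strand was used in counting is not given in the sources used here. SLC29A2 spans 9.69 kb and lay 2.40 below the median of its class, and SLC26A6, an anion exchanger of 9.77 kb, lay 1.72 below with a log2 fold change of -0.43 (SE 0.17, adjusted p = 0.0224). SLC29A2 overlaps an unnamed gene on the opposite strand over 2.28 kb, which had a mean of 159 and a log2 fold change of -2.12 (SE 0.28). SLC9A5 and SLC6A16, of 34.5 and 35.6 kb, were at -1.93 (SE 0.28) and -1.91 (SE 0.22). In all, 47 members overlapped another tested gene with a mean of at least 50 in the annotation, 45 of them on the opposite strand.

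The nuclear libraries also differed from each other with span. The log2 ratio of the deeper to the shallower nuclear library had a median of 0.11 in the 31 members over 100 kb, of which 26 were higher in the deeper library, and of -0.07 in the 17 members of at most 10 kb, of which 5 were. The correlation between span and this ratio was 0.336 over the members and 0.466 over the abundant protein-coding genes. The cytoplasmic pair gave 0.105 and 0.045. The largest nuclear difference was 0.50 in SLC22A23, an orphan of the organic ion family of 188 kb, with 2371 and 1678 normalized counts. In any of the 4 pairs of 1 nuclear and 1 cytoplasmic library, the correlation between span and the log2 ratio of the fractions lay between -0.676 and -0.655, and the members' median between 0.05 and 0.07.

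**Figure D5:**
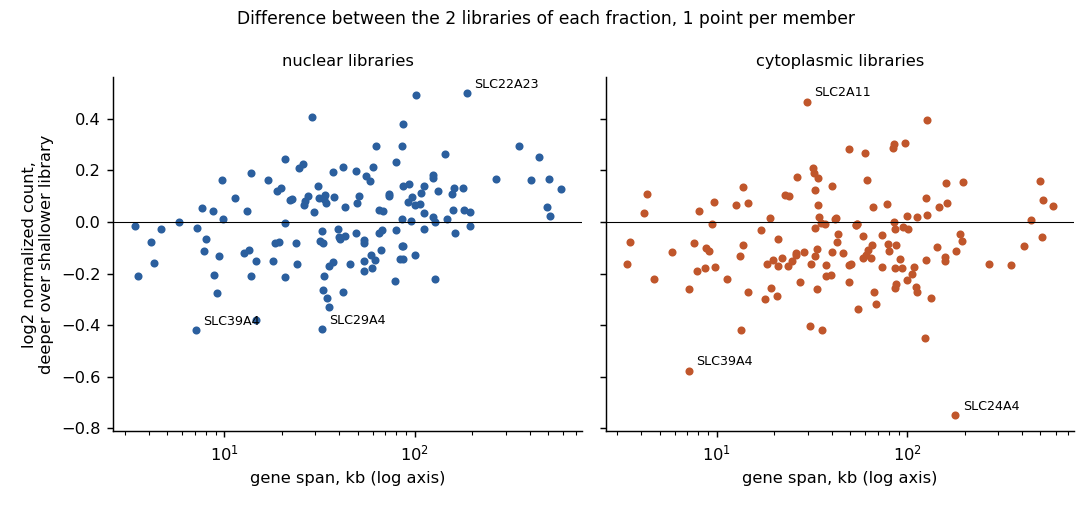
Log2 ratio of the normalized counts of the deeper to the shallower library within each fraction, against gene span in kb on a log axis, with 1 point per member. The nuclear ratio rises with span (Spearman correlation 0.336) and the cytoplasmic one little (Spearman correlation 0.105), and the nuclear points lie between -0.42 and 0.50 while the cytoplasmic ones reach from -0.75 in SLC24A4 to 0.46 in SLC2A11.

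Other transport genes gave the members a frame, beside the 45.0% cytoplasmic and 33.0% nuclear calls of the abundant protein-coding genes. Among 39 SLC25 mitochondrial carriers with a mean of at least 100, 20 were called cytoplasmic and 12 nuclear, with a median of 0.48. Of 35 genes of other carrier families, among them the MFSD and SLCO genes, 14 were called cytoplasmic and 11 nuclear (median 0.25). The ABC genes, most of which encode exporters driven by ATP, were called cytoplasmic in 6 and nuclear in 11 of 25 cases (median -0.31), and the P-type ATPases in 7 and 11 of 25 (median -0.10). The subunits of the V-ATPase, the proton pump of lysosomes and the Golgi, were called cytoplasmic in 12 and nuclear in 2 of 17 cases (median 1.11). The solute carriers' median of 0.07 lay above those of the ABC genes and P-type ATPases and below those of the other lists. With equal totals the cytoplasmic and nuclear calls were 12 and 17 (median -0.18) for SLC25, 8 and 17 (median -0.41) for the other carrier families and 3 and 16 (median -0.98) for the ABC genes. They were 3 and 17 (median -0.77) for the P-type ATPases and 9 and 5 (median 0.45) for the V-ATPase, beside 29.0% and 49.0% of the abundant protein-coding genes.

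ATF4 is the transcription factor that raises amino acid uptake and synthesis when amino acids are short. Of 9 of its known targets among the solute carriers, 8 were members, of which 4 were called cytoplasmic and 2 nuclear, with a median of 0.29. Of 19 targets outside the carriers, 16 were called cytoplasmic and 0 nuclear by the deposited test, with a median of 1.58, beside 45.0% and 33.0% of the abundant protein-coding genes. With equal totals 13 of these 19 were called cytoplasmic and 2 nuclear, and of the 8 carrier targets 3 and 5. Asparagine synthetase ASNS was at 1.70 (SE 0.13), and the cystathionine-cleaving enzyme CTH, at -0.30 (SE 0.16, adjusted p = 0.0854), was not called. Carrier targets ran from SLC6A9, a glycine carrier, at -0.62 (SE 0.14) to SLC1A5. Among the accessory chains that bring carriers to the cell surface, BSG, the partner of SLC16A1, was at 2.13 (SE 0.11), EMB at 0.60 (SE 0.14) and NPTN at -1.28 (SE 0.13), while SLC16A1 itself was at 0.20.

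Near the minimum mean, the 3 members just inside were SLC7A8 with a mean of 102.0, SLC39A4 with 105.1 and SLC4A5 with 109.2, and the 3 genes just outside were SLC15A2 with 99.1, SLC10A4 with 98.7 and SLC17A9 with 96.7. Their log2 fold changes were -0.20, 1.29 and -2.84 inside and -2.98, 1.21 and 0.06 outside. Of the 97 tested solute carriers below the minimum, 3 were called cytoplasmic and 16 nuclear, with a median of -0.88. The members not called with the widest errors were SLC7A8, SLC27A5 at -0.14 (SE 0.27), SLC16A5 at 0.56 (SE 0.26), SLC46A3 at 0.37 (SE 0.25) and SLC45A3 at 0.16 (SE 0.25), all with means under 175. SLC16A5 missed the threshold in the deposited test (adjusted p = 0.0535) but not in limma (adjusted p = 0.00967).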

How the data were processed

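RNA from nuclear and cytoplasmic fractions of HEK293T cells was sequenced in 4 libraries, paired-end with 100 nt reads. Per the labels and the study's methods, the authors aligned reads to hg38 with STAR, counted them per gene over exons and introns with featureCounts version 2.0.2 and a GENCODE annotation modified by removing overlapping stretches, and compared the fractions with DESeq2. The authors' deposited table gives for each gene a signal, the mean normalized count of the 4 libraries. It also gives a log2 fold change with a standard error, the Wald score, the p-value and the adjusted p-value, all deposited by the authors. These authors' estimates are the main test.

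Whole counts of each library were solved here as the combination that gives the deposited mean and, through a refit of the same model, the deposited fold change within 1.2e-09. Genes above a mean of 20000 were not tried, and no member was among them. Normalized counts are these counts over the size factors of the libraries. Limma version 3.58.1 (lmFit and eBayes with a mean trend, Benjamini-Hochberg adjustment) was run on log2(normalized count + 1). Programs were tested on simulated data. Spans and exons came from GENCODE 44 on hg38, in which all 140 members had a match by identifier. A span covers every annotated transcript.

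The members and lists were chosen with earlier results of these data known. Named members were the 8 largest and 8 smallest log2 fold changes among those called, the 8 highest means, the extremes of each substrate group, the heteromeric amino acid carriers, a fixed list of well-studied carriers, the 3 on each side of the minimum mean and the 5 least precise without a call. Other named genes were chosen after their values were seen, to show a family or a departure from the order by span. Substrate groups follow family numbers, and SLC2A4RG, SLC4A1AP and SLC7A6OS were moved out of them after the table was read. The span classes were also set then. The table holds no count column, and the solved counts were tested with limma alone, so no count model was fitted for tests.

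The depth sets a counting error only, and with 2 libraries a fraction the p-values measure the spread between these libraries. Alternatives were another scale, minimum mean, threshold, pseudocount, low-count filter, test, a replicate block, and each library left out. Protein sequences were not used here. Values of a few single members are not reported here.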

Additional observations from a re-analysis of the deposited data

How the results depend on the processing

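On the deposited scale 54 members were called cytoplasmic and 50 nuclear, with a median log2 fold change of 0.07 and a Spearman correlation with gene span of -0.667. Equal library totals gave 24 and 79 calls and a median of -0.59, and limma on CPM 26 and 78 calls and -0.56. Bonferroni adjustment left 35 and 31 calls. A minimum mean of 500 left 32 nuclear calls among 87 genes and a median of 0.16, no minimum gave a median of -0.38 over 237 genes, and centring on the protein-coding median gave -0.04. The other alternatives without a left-out library changed no count by more than 1.5 times. With 1 library left out, limma made from 0 to 53 cytoplasmic and from 0 to 52 nuclear calls over all 8 such fits, with medians from 0.08 to 0.11. Both counts of 0 came from leaving out either the deeper or the shallower nuclear library, where limma with a prior of 1.2 degrees of freedom called 0 of 23276 genes, against 43 and 41 members or more without a cytoplasmic library. At an unadjusted p-value under 0.05 these fits had 50 and 44 members without the deeper, and 52 and 49 without the shallower nuclear library, and all 104 called members kept their sign. Restricted to genes with a mean of at least 100, chosen after seeing the data, the same fits gave 52 and 46, and 53 and 52 calls. The lone library of a fraction is then assumed to vary like the other fraction's. The correlation was -0.396 with exonic length, -0.656 with intron length, -0.495 with exon blocks, -0.635 without the 5 longest genes and -0.655 for the shallower nuclear with the deeper cytoplasmic library. Of 48 named members, 11 changed sign with equal totals. In 7 of them a difference was called on 1 or both scales, SLC16A1 to -0.46, SLC19A1 to -0.22, SLC38A1 and SLC7A1 to -0.35, SLC38A2 to -0.40, SLC3A2 to -0.42 and SLC7A6 to -0.63. The other 4, called on neither scale, were SLC16A5 at -0.10, SLC45A3 at -0.50, SLC46A3 at -0.29 and SLC4A1AP at -0.36. A further 10 lost and 3 gained a call on that scale, and 3 lost it with centring. The planned count test was not run, as the table holds no count column and the solved counts were tested with limma alone. The true pairing of the libraries is not known, so limma was run with a replicate block for either possible pairing, each with 1 residual degree of freedom and added after seeing the data. Pairing the deeper libraries with each other gave 52 cytoplasmic and 53 nuclear calls, and pairing deeper with shallower 55 and 53, both with a median of 0.07. The cause of these changes was not tested, apart from the scale, which shifts all genes alike.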
